A study of Mus musculus with 14 samples.

Results

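The genes described here carry out and time cell division: cyclins and their kinases, the machinery of chromosome segregation, condensin and cohesin, and the kinesin motor proteins. The rule that chose them uses gene symbols and no measured value, but it was set with earlier results of these data known. It takes symbols beginning with a fixed set of stems (Ccna, Ccnb, Ccnd, Ccne, Ccnf, Cdk, Cdc2, Cenp, Kif, Aurk, Bub, Mad2, Plk, Nek, Anapc, Smc, Ncap, Tacc and a few single names), together with Mki67, Nusap1, Birc5, Stmn1, Pttg1, Stil, Fbxo5 and Racgap1. The array listed 109 such genes. Of these, 107 were measured and tested, among 6286 named genes and 13045 features tested in all, and the other two, Cdk19 and Ncapd3, had no value on any array. The 107 genes were read by 150 probes, and 28 of them by more than 1 probe. A choice by symbol also takes in 22 genes whose names match but whose main known work lies outside mitosis, and these are described separately.

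RNA from the spleen of AcB55 mice (6 arrays) and of AcB61 mice (8 arrays) was compared with RNA from the spleen of A/J mice on 2-channel cDNA arrays, in a series titled Malaria resistance. AcB strains are recombinant congenic strains: inbred mice with mostly the A/J genome and segments from C57BL/6J. From published work on these strains, and not from the sample labels, both are known to carry a loss-of-function allele of Pklr, the pyruvate kinase of red cells. The labels give no age, sex, infection or treatment for any of the 3 strains. They do not say whether arrays of a strain shared a mouse or an RNA pool. The p-values therefore measure only how far arrays scatter within the strains, pooled over AcB55 and AcB61, and that scatter may be technical. Every array carried A/J RNA in its second channel and no array compared A/J with A/J, so the spread among A/J mice is left out of every test, and both strains were set against the same reference.

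A cell divides when cyclin-dependent kinases, switched on by cyclins, drive it through DNA synthesis and into mitosis. There, condensin compacts the chromosomes, kinetochores built on the centromeres catch spindle microtubules, and a checkpoint holds the cell back until every chromosome is attached. The anaphase-promoting complex then marks securin and mitotic cyclins for destruction, separase cuts the cohesin rings, and motor proteins pull the sister chromatids apart. In the mouse spleen such dividing cells include red cell precursors, which expand there under anaemia, and lymphocytes.

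Values are log2 ratios as deposited, likely in the direction of strain over A/J: 0 is equal signal, 1 is a doubling over A/J and negative values are lower than A/J. The dyes and the base of the logarithm were not given in the sources used here, so the direction and the base rest on the order of the channels in the labels and on the range of values. A gene was called higher or lower when the adjusted p of limma, Benjamini-Hochberg over all 13045 features, was under 0.05. In bulk tissue, fewer cells of a type and less RNA per cell cannot be told apart.

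More of these genes were called higher than A/J than called lower, in both strains; if the ratio ran the other way, each count of higher and lower below would change places. In AcB55, 46 of the 107 genes (43.0%) were called higher and 6 (5.61%) lower, where 9.77% of all features were called higher and 10.9% lower (20.7% in either direction). In AcB61, 49 genes (45.8%) were called higher and 7 (6.54%) lower, against 10.5% and 13.3% of all features (23.8% in either direction). The median of the 107 mean log2 ratios was 0.19 in AcB55 and 0.15 in AcB61, beside -0.0020 and -0.00067 over all features. In AcB55, 47 of the genes lay above 0 on every array with a value, as did 10.6% of all features. In AcB61 the count was 37, beside 6.52% of all features. Below 0 on every array were 8 of the genes in AcB55, beside 13.2% of all features, and 7 in AcB61, beside 7.69% of all features.

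The counts differed by role. The 22 genes placed outside mitosis are transport kinesins, transcriptional and other CDKs, and genes matched by symbol only. In AcB55, 2 of them (9.09%) were called higher and 3 (13.6%) lower. In AcB61, 3 (13.6%) were called higher and 1 (4.55%) lower. Among the other 85, 44 (51.8%) were called higher and 3 (3.53%) lower in AcB55, and 46 (54.1%) higher and 6 (7.06%) lower in AcB61. Of all features, 9.77% were called higher and 10.9% lower in AcB55, and 10.5% and 13.3% in AcB61. These roles were assigned by hand from general knowledge. Some of the 22 also touch the cell cycle, such as Ccndbp1, which binds D-type cyclins, and another split could change these shares.

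**Figure D1:**
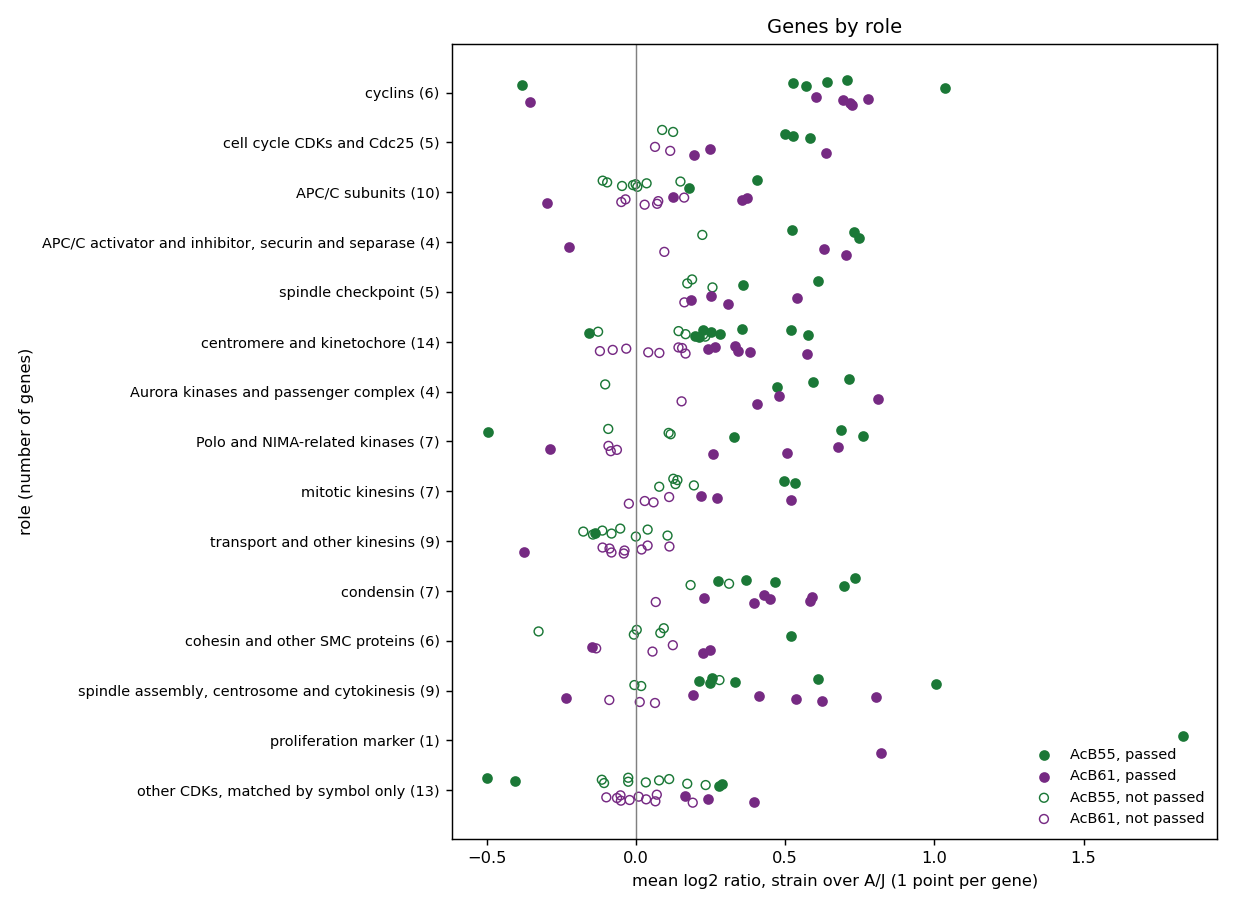
Mean log2 ratio over A/J of each of the 107 genes (x axis) by role (y axis, number of genes in brackets), with green points for AcB55 and purple for AcB61; filled points passed the test and open points did not. All 6 cyclins passed in both strains, 5 higher and 1 lower. Among the 9 transport and other kinesins no point is called higher, which is near the shares of all features (9.77% in AcB55, 10.5% in AcB61).

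Promoter sequences of the genes with the largest increases show a feature that the choice by symbol did not use. Many promoters of genes expressed at the end of the cell cycle hold a cell cycle genes homology region (CHR), bound by the DREAM and MuvB complexes, near CCAAT boxes, bound by the factor NF-Y. The CHR letters TTTGAA and the letters CCAAT were searched on both strands in the RefSeq promoters of GRCm38.p6, which run from 250 bases before to 50 bases after each start. Of the 107 genes, 97 had an entry, and 23 of these (23.7%) held both motifs. Both were present in 5.86% of the 5140 genes tested on the array that had an entry, in 7.97% of all 27025 genes with an entry, and in 6.95% of all 32851 promoters of that length (some genes have several). Among members called higher in AcB55, 18 of the 42 with an entry (42.9%) held both, and among those called higher in AcB61, 16 of 43 (37.2%). Among the 43 with an entry that were called higher in neither strain, 4 (9.3%) held both: none of 15 transport kinesins and genes matched by symbol only, and 4 of the other 28 (14.3%). No test was run between these groups. Genes outside the list that were called higher held both in 9.39% (AcB55, 543 genes) and 8.25% (AcB61, 630 genes). A match is a run of letters and no evidence of binding.

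Taken singly, TTTGAA was present in 32.0% of the 97 genes with an entry and CCAAT in 52.6%. The shares were 14.2% and 43.4% of the genes tested on the array, 20.2% and 41.1% of all genes with an entry, and 17.9% and 37.4% of all promoters. An E2F-type site, searched as TTTCCCGC, TTTCGCGC, TTTGCCGC or TTTGGCGC on both strands, was present in 11.3% of the 97, in 5.23% of the genes tested on the array, in 2.6% of all genes with an entry and in 2.26% of all promoters. Its share was 11.9% among members called higher in AcB55, 11.6% among those called higher in AcB61 and 11.6% among those called higher in neither. Each of these 3 shares rests on 5 genes, and they were not tested against each other.

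The 10 genes with the largest increase in each strain come to 17 genes. Of these, 13 had a promoter entry and 11 had a single one. The 7 single-entry promoters that held both motifs between 170 bases before and 30 bases after the start are printed here to show where the motifs lie (5′ to 3′ on the gene's strand, TTTGAA and CCAAT or their reverse complements in capitals, no 2 motifs overlapping).
Mki67 (chr7:135716350-135716549, minus strand): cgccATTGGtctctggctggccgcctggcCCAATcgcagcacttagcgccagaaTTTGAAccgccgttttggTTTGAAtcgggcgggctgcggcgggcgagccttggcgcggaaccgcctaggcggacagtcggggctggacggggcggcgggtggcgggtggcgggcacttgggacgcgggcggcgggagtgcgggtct
Cdc20 (chr4:118437314-118437513, minus strand): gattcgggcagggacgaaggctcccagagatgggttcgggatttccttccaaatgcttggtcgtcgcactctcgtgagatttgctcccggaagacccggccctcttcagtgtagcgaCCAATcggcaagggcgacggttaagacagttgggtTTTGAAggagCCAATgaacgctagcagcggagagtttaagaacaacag
Fbxo5 (chr10:5805436-5805635, minus strand): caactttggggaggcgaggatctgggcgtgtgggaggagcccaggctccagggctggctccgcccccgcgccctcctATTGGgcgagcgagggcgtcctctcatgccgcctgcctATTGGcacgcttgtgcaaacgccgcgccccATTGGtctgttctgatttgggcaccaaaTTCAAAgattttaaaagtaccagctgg
Ccnf (chr17:24251380-24251579, minus strand): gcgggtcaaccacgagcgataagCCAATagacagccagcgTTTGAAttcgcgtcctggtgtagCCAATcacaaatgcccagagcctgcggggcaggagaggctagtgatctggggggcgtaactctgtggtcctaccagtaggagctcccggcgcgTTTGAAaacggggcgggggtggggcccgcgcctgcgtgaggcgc
Ncapd2 (chr6:125191557-125191756, minus strand): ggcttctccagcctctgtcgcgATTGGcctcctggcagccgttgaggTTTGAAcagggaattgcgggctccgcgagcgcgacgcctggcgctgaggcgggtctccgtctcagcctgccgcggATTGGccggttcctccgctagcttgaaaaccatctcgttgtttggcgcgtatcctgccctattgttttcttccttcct
Ccnb2 (chr9:70421525-70421724, minus strand): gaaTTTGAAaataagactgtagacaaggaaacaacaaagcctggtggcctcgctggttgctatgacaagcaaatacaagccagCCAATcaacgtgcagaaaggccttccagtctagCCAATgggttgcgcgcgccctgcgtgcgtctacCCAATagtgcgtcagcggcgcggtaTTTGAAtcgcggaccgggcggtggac
Cdk1 (chr10:69352883-69353082, minus strand): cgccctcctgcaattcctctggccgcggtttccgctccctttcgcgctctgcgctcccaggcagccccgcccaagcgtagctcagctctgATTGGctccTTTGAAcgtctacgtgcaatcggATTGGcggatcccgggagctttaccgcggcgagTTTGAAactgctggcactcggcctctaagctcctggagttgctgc

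Positions are counted from the start as 1, with -1 the base before it, and give a motif's first base. In the Cdk1 promoter, which drives the kinase of mitotic entry, TTTGAA stood at -71 and -15, and CCAAT in reverse at -80 and -48. In the Ccnb2 promoter, 3 CCAAT runs stood at -87, -54 and -21, and TTTGAA at 5 and farther out at -167. The Cdc20 promoter had its TTTGAA at -18, between CCAAT runs at -53 and -8. These 3 promoters belong to a kinase, its cyclin and the activator of mitotic exit. Each had a TTTGAA close to the start and a CCAAT run on its upstream side. They were picked from 7 promoters printed because they held both motifs, and the layout was not tested. Of the others, Fbxo5 had TTTGAA in reverse at 4 and Ccnf had it at -130 and -14. In the Mki67 promoter the motifs lay farther from the start, with TTTGAA at -116 and -98 and CCAAT at -141 and, in reverse, -166. The Ncapd2 promoter also had its TTTGAA far out, at -123, with CCAAT in reverse at -148 and -48. The starts used for Mki67 and Ncapd2 differ from those of the RefSeq gene table. The table used here had no entry for Ccna2, Smc4, Incenp or Stmn1.

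Mki67 encodes Ki-67, a protein of dividing cells that coats mitotic chromosomes and is the standard marker of proliferation. It had the largest mean log2 ratio of the 107 genes in AcB55, and in AcB61 its mean was close to those of Birc5 and Stmn1. Mki67 measured 1.50, 1.85 and 2.20 on the lowest, median and highest AcB55 array and 0.49, 0.84 and 1.05 on the AcB61 arrays. Every AcB55 array was above every AcB61 array. The means were 1.83 ± 0.25 (SD, n = 6, adjusted p = 1.9e-10) in AcB55 and 0.82 ± 0.20 (SD, n = 8, adjusted p = 8.99e-07) in AcB61, which are 3.56-fold and 1.77-fold of A/J. The strains differed by -1.01 (SE 0.11, AcB61 minus AcB55, adjusted p = 4.33e-05). Only 1 probe read Mki67.

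**Figure D2:**
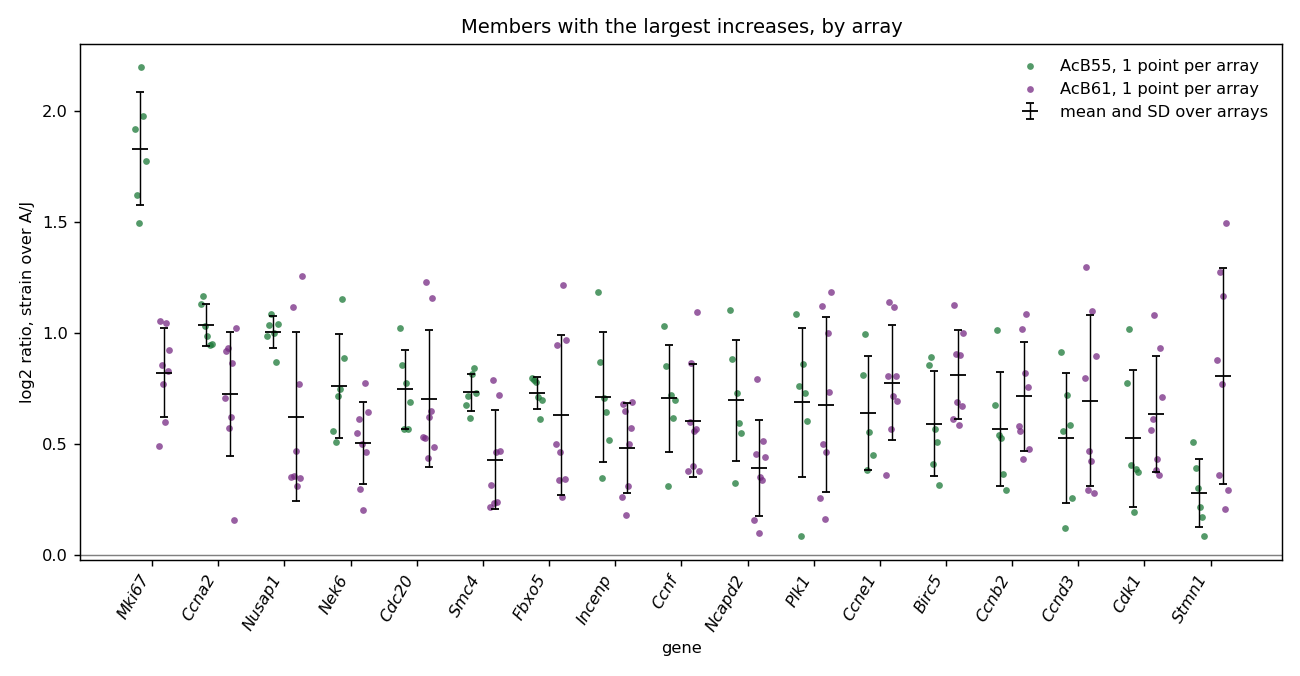
Log2 ratio over A/J (y axis) on each array for the 17 genes that make up the 10 largest increases of each strain (x axis); points are arrays, green for AcB55 and purple for AcB61, and bars give the mean and SD over arrays. Mki67 is the gene of the 17 whose AcB55 arrays, from 1.50 upward, all lie above its AcB61 arrays.

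All 6 measured cyclins differed from A/J in both strains, beside 20.7% of all features in AcB55 and 23.8% in AcB61. The A, B, E and F type cyclins and Ccnd3 were higher, and Ccnd2, a D-type cyclin that carries growth signals into the start of the cycle in lymphocytes among other cells, was lower. Ccna2, the cyclin of DNA synthesis and mitotic entry, measured 0.95, 1.01 and 1.17 (lowest, median and highest array) in AcB55 and 0.16, 0.79 and 1.02 in AcB61. Its means were 1.03 ± 0.094 (SD, n = 6, adjusted p = 2.42e-07) in AcB55 and 0.73 ± 0.28 (SD, n = 8, adjusted p = 2.84e-06) in AcB61. The lowest AcB61 value is that of replicate 7, where only 1 of the 2 Ccna2 probes had a value. Ccnb2, a partner of Cdk1 in mitosis, measured 0.29, 0.53 and 1.01 in AcB55 and 0.43, 0.67 and 1.08 in AcB61, with means of 0.57 ± 0.26 (SD, n = 6, adjusted p = 0.000216) in AcB55 and 0.72 ± 0.25 (SD, n = 8, adjusted p = 7.31e-06) in AcB61. The strains overlapped for both genes.

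Ccne1, the cyclin that with Cdk2 starts DNA synthesis, measured 0.38, 0.56 and 0.99 on 5 AcB55 arrays and 0.36, 0.76 and 1.14 on the AcB61 arrays, with means of 0.64 ± 0.26 (SD, n = 5, adjusted p = 0.000251) in AcB55 and 0.78 ± 0.26 (SD, n = 8, adjusted p = 5.84e-06) in AcB61. Ccnf, a cyclin-like subunit of a ubiquitin ligase, measured 0.31, 0.71 and 1.03 in AcB55 and 0.38, 0.56 and 1.09 in AcB61, with means of 0.71 ± 0.24 (SD, n = 6, adjusted p = 2.71e-05) in AcB55 and 0.60 ± 0.25 (SD, n = 8, adjusted p = 3.66e-05) in AcB61. Ccnd3, the D-type cyclin known for its part in the last divisions of red cell precursors, measured 0.12, 0.57 and 0.92 in AcB55 and 0.28, 0.63 and 1.30 in AcB61. Its means were 0.53 ± 0.29 (SD, n = 6, adjusted p = 0.00464) in AcB55 and 0.69 ± 0.39 (SD, n = 8, adjusted p = 0.00016) in AcB61. Ccnd2 was below A/J on all 14 arrays, with -0.55, -0.38 and -0.25 in AcB55 and -0.54, -0.36 and -0.17 in AcB61. Its means over 6 probes were -0.38 ± 0.11 (SD, n = 6, adjusted p = 6.48e-05) in AcB55 and -0.36 ± 0.12 (SD, n = 8, adjusted p = 4.18e-05) in AcB61. No difference between the strains passed the test for any cyclin (smallest adjusted p = 0.0741, Ccna2).

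Of the kinases that cyclins switch on, the mitotic kinase was higher in both strains and the partners of D-type cyclins had 1 call between them, Cdk4 in AcB61. Cdk1, the kinase of mitotic entry, measured 0.19, 0.40 and 1.02 in AcB55 and 0.36, 0.59 and 1.08 in AcB61, with means of 0.53 ± 0.31 (SD, n = 6, adjusted p = 0.00105) in AcB55 and 0.64 ± 0.26 (SD, n = 8, adjusted p = 6.01e-05) in AcB61. Cdk2, the partner of cyclins E and A, measured 0.27, 0.53 and 0.66 in AcB55 and -0.011, 0.11 and 0.24 in AcB61, and the strains did not overlap. Its means were 0.50 ± 0.15 (SD, n = 6, adjusted p = 3.54e-06) in AcB55 and 0.11 ± 0.07 (SD, n = 8, adjusted p = 0.0804) in AcB61. Cdc25a, a phosphatase that removes the inhibitory phosphates from these kinases, measured 0.36, 0.59 and 0.80 in AcB55 and -0.14, 0.24 and 0.47 in AcB61, with means of 0.58 ± 0.18 (SD, n = 6, adjusted p = 2.98e-05) in AcB55 and 0.19 ± 0.21 (SD, n = 8, adjusted p = 0.0411) in AcB61.

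The call of Cdc25a in AcB61 was lost without any one of AcB61 replicates 3, 5, 6, 7 and 8 (adjusted p 0.0651 to 0.118). Cdk4, a partner of D-type cyclins, measured -0.24, 0.17 and 0.34 in AcB55 and -0.096, 0.29 and 0.61 in AcB61, with means of 0.12 ± 0.22 (SD, n = 6, adjusted p = 0.379) in AcB55 and 0.25 ± 0.25 (SD, n = 8, adjusted p = 0.0236) in AcB61. Its call in AcB61 was lost without any one of AcB61 replicates 1, 2, 6 and 8 (adjusted p 0.0555 to 0.0723). Cdk6, the other such partner, had means of 0.087 ± 0.25 (SD, n = 6, adjusted p = 0.475) in AcB55 and 0.063 ± 0.12 (SD, n = 8, adjusted p = 0.553) in AcB61, with -0.29, 0.10 and 0.45 over the AcB55 and -0.15, 0.063 and 0.24 over the AcB61 arrays. It passed in neither strain.

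Subunits of the anaphase-promoting complex (APC/C), the ubiquitin ligase of mitotic exit, were for the most part not called. Of the 10 measured subunits 2 were called higher in AcB55 (Cdc27 and Anapc1; 20.0%, beside 9.77% of all features). In AcB61, 3 were called higher (Cdc23, Anapc5 and Cdc27, 30% beside 10.5% of all features) and 1 lower (Anapc16, 10% beside 13.3%). Cdc27 measured 0.26, 0.42 and 0.54 in AcB55 and 0.033, 0.12 and 0.22 in AcB61, without overlap, with means of 0.41 ± 0.13 (SD, n = 6, adjusted p = 1.37e-05) in AcB55 and 0.12 ± 0.058 (SD, n = 8, adjusted p = 0.0443) in AcB61. Anapc16 measured -0.21, -0.089 and 0.17 in AcB55 and -0.64, -0.26 and -0.042 in AcB61, with means of -0.047 ± 0.16 (SD, n = 6, adjusted p = 0.735) in AcB55 and -0.30 ± 0.20 (SD, n = 8, adjusted p = 0.00202) in AcB61. Cdc23 had means of 0.15 ± 0.11 (SD, n = 6, adjusted p = 0.09) in AcB55 and 0.37 ± 0.15 (SD, n = 8, adjusted p = 6.01e-05) in AcB61, Anapc5 of 0.035 ± 0.25 (SD, n = 6, adjusted p = 0.883) in AcB55 and 0.35 ± 0.33 (SD, n = 8, adjusted p = 0.00966) in AcB61 and Anapc1 of 0.18 ± 0.11 (SD, n = 6, adjusted p = 0.0132) in AcB55 and 0.029 ± 0.077 (SD, n = 8, adjusted p = 0.705) in AcB61. The remaining 5 subunits (Anapc2, Anapc4, Anapc7, Anapc10 and Cdc26) had means between -0.11 (Cdc26, AcB55) and 0.16 (Cdc26, AcB61) and passed in neither strain. The call of Anapc1 in AcB55 was lost without replicate 1 (adjusted p = 0.0535) or 6 (adjusted p = 0.0527), and that of Cdc27 in AcB61 without any one of 8 single arrays (adjusted p 0.0521 to 0.109), 7 of them AcB61 arrays (all but replicate 6) and the other AcB55 replicate 3.

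The activator and the inhibitor of the complex were both higher in both strains. Cdc20, the activator that the spindle checkpoint holds in check, measured 0.57, 0.73 and 1.02 in AcB55 and 0.44, 0.58 and 1.23 in AcB61, with means of 0.75 ± 0.18 (SD, n = 6, adjusted p = 2.39e-05) in AcB55 and 0.70 ± 0.31 (SD, n = 8, adjusted p = 1.26e-05) in AcB61. Fbxo5, known as Emi1 and an inhibitor of the complex before mitosis, measured 0.61, 0.75 and 0.80 in AcB55 and 0.26, 0.48 and 1.22 in AcB61, with means of 0.73 ± 0.072 (SD, n = 6, adjusted p = 4.86e-05) in AcB55 and 0.63 ± 0.36 (SD, n = 8, adjusted p = 6.01e-05) in AcB61. The AcB61 arrays thus spanned a wider range than the AcB55 arrays for Fbxo5.

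Pttg1, or securin, which holds separase inactive until anaphase, went in opposite directions in the strains. It measured 0.29, 0.48 and 0.90 in AcB55 and -0.39, -0.24 and -0.015 in AcB61, so that every AcB55 array was above 0 and every AcB61 array below it. The means were 0.52 ± 0.20 (SD, n = 6, adjusted p = 2.6e-05) in AcB55 and -0.23 ± 0.14 (SD, n = 8, adjusted p = 0.00923) in AcB61, and the difference was -0.75 (SE 0.09, adjusted p = 0.000108). Both Pttg1 probes showed the strain difference, at -0.75 (adjusted p = 0.000292) and -0.69 (adjusted p = 0.00084). In AcB61 the first probe was called lower than A/J (-0.26, adjusted p = 0.00449) and the second was not (-0.19, adjusted p = 0.0525). Espl1, separase itself, measured -0.23, 0.26 and 0.62 in AcB55 and -0.053, 0.13 and 0.22 in AcB61 and passed in neither (adjusted p = 0.0732 and 0.411).

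The spindle checkpoint delays anaphase while kinetochores are unattached. Of its 5 measured genes 2 were called higher in AcB55 and 4 in AcB61, and none lower. Mad2l1, whose protein captures Cdc20, measured 0.46, 0.60 and 0.76 in AcB55 and 0.20, 0.38 and 1.06 in AcB61, with means of 0.61 ± 0.13 (SD, n = 6, adjusted p = 0.000265) in AcB55 and 0.54 ± 0.35 (SD, n = 8, adjusted p = 0.000262) in AcB61. Bub1b, or BubR1, a subunit of the same inhibitory complex, measured -0.092, 0.36 and 0.75 on 5 AcB55 arrays and -0.031, 0.095 and 0.55 in AcB61, with means of 0.36 ± 0.31 (SD, n = 5, adjusted p = 0.0154) in AcB55 and 0.16 ± 0.21 (SD, n = 8, adjusted p = 0.158) in AcB61. Bub1, the checkpoint kinase at kinetochores, measured -0.019, 0.19 and 0.64 in AcB55 and -0.14, 0.14 and 1.03 in AcB61, with means of 0.26 ± 0.25 (SD, n = 6, adjusted p = 0.158) in AcB55 and 0.31 ± 0.40 (SD, n = 8, adjusted p = 0.0403) in AcB61. The AcB61 increase of Bub1 lay mainly in replicates 3, 5 and 7, with a mean of 0.75 against 0.023 in replicates 2, 6 and 8.

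Bub3, the adaptor that brings Bub1 and Bub1b to kinetochores, measured -0.037, 0.13 and 0.48 in AcB55 and -0.001, 0.17 and 0.41 in AcB61, with means of 0.17 ± 0.17 (SD, n = 6, adjusted p = 0.0576) in AcB55 and 0.18 ± 0.12 (SD, n = 8, adjusted p = 0.0182) in AcB61. Mad2l1bp, which helps to silence the checkpoint, had means of 0.19 ± 0.18 (SD, n = 6, adjusted p = 0.113) in AcB55 and 0.25 ± 0.23 (SD, n = 8, adjusted p = 0.0126) in AcB61. Several of these calls rested on few arrays. The Bub1b call in AcB55 was lost without replicate 1 (adjusted p = 0.0927) or 5 (adjusted p = 0.0604). The Bub3 call in AcB61 was lost without replicate 3 (adjusted p = 0.0572), and the Bub1 call without replicate 3 (adjusted p = 0.112), 5 (adjusted p = 0.0868) or 7 (adjusted p = 0.126).

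Of 14 measured genes of the centromere and kinetochore, 8 were called higher and 1 lower in AcB55, and 6 higher and none lower in AcB61. Those called higher are 57.1% in AcB55 and 42.9% in AcB61, beside 9.77% and 10.5% of all features. The 1 called lower in AcB55 is 7.14%, beside 10.9%. Cenpa, the histone H3 variant that marks the centromere, measured 0.0081, 0.22 and 0.34 in AcB55 and 0.44, 0.52 and 0.78 in AcB61, without overlap, with means of 0.21 ± 0.12 (SD, n = 6, adjusted p = 0.0134) in AcB55 and 0.57 ± 0.14 (SD, n = 8, adjusted p = 7.93e-07) in AcB61. Cenpf, a large protein of the outer kinetochore that accumulates late in the cycle, measured 0.24, 0.59 and 0.92 in AcB55 and -0.18, 0.062 and 0.21 in AcB61, also without overlap, with means of 0.57 ± 0.23 (SD, n = 6, adjusted p = 2.45e-05) in AcB55 and 0.041 ± 0.15 (SD, n = 8, adjusted p = 0.728) in AcB61. The strain difference of Cenpa came from 1 of its 2 probes: the first averaged 0.56 in AcB55 and 0.53 in AcB61 (difference -0.035, adjusted p = 0.846), and the second -0.14 and 0.61 (difference 0.76, adjusted p = 4.72e-05). The AcB55 mean of Cenpa therefore lies between probes that stand apart. Ndc80 and Nuf2 form the part of the kinetochore that grips microtubules. Ndc80 measured 0.20, 0.49 and 0.88 in AcB55 and -0.09, 0.15 and 0.79 in AcB61, with means of 0.52 ± 0.22 (SD, n = 6, adjusted p = 0.00146) in AcB55 and 0.26 ± 0.33 (SD, n = 8, adjusted p = 0.0423) in AcB61. Nuf2 measured 0.10, 0.30 and 0.78 in AcB55 and 0.072, 0.22 and 0.74 on 7 AcB61 arrays, with means of 0.36 ± 0.26 (SD, n = 6, adjusted p = 0.0103) in AcB55 and 0.33 ± 0.25 (SD, n = 7, adjusted p = 0.00943) in AcB61.

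Among the inner kinetochore proteins, Cenpn had means of 0.28 ± 0.20 (SD, n = 6, adjusted p = 0.0355) in AcB55 and 0.34 ± 0.27 (SD, n = 8, adjusted p = 0.0041) in AcB61 and Cenpq of 0.25 ± 0.18 (SD, n = 6, adjusted p = 0.0105) in AcB55 and 0.24 ± 0.14 (SD, n = 8, adjusted p = 0.00515) in AcB61. Cenph was called in AcB61 (0.38 ± 0.28, adjusted p = 0.0022) and Cenpu in AcB55 (0.23 ± 0.20, adjusted p = 0.0447). Cenpe, a kinesin that carries chromosomes to the spindle's middle, was called in AcB55 (0.20 ± 0.21, adjusted p = 0.0308). The first of its 2 probes averaged 0.51 in AcB55 (adjusted p = 0.000761) and the second -0.11 (adjusted p = 0.23), so that the mean describes neither. Cenpo was lower in AcB55, where it measured -0.23, -0.18 and -0.0071 (mean -0.16 ± 0.078, adjusted p = 0.0327), and measured -0.25, -0.07 and 0.078 in AcB61 (adjusted p = 0.223). Cenpb, Cenpl, Cenps and Cenpt passed in neither strain. Most of the small calls in this group depended on single arrays.

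Without AcB55 replicate 1, Cenpa (adjusted p = 0.0534), Cenpe (adjusted p = 0.128), Cenpn (adjusted p = 0.105), Cenpo (adjusted p = 0.0722) and Cenpu (adjusted p = 0.193) lost their AcB55 calls. Without replicate 2, Cenpe (adjusted p = 0.119), Cenpn (adjusted p = 0.14), Cenpo (adjusted p = 0.0743) and Cenpu (adjusted p = 0.0769) did. Without replicate 6, Cenpe (adjusted p = 0.0534), Cenpn (adjusted p = 0.0778), Cenpo (adjusted p = 0.1) and Cenpu (adjusted p = 0.0658) did. The calls of Cenpf and Cenpq in AcB55 held in every such fit. Replicate 4 mattered for Cenpe (adjusted p = 0.0891), replicates 3 and 5 for Cenpo (adjusted p = 0.0785 and 0.0668) and for Cenpu (adjusted p = 0.0513 and 0.104). Cenpu also lost its AcB55 call without AcB61 replicate 1, 4 or 7 (adjusted p 0.0503 to 0.0566). The Ndc80 call in AcB61 was lost without any one of 7 arrays, AcB61 replicates 3, 4, 5 and 7 and AcB55 replicates 3, 5 and 6 (adjusted p 0.05 to 0.135).

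The Aurora kinases correct faulty attachments and build the spindle, and Birc5 (survivin) and Incenp form with Aurora B the chromosomal passenger complex. Aurka, Birc5 and Incenp were called higher in both strains. Birc5 measured 0.31, 0.54 and 0.89 in AcB55 and 0.59, 0.80 and 1.13 in AcB61, with means of 0.59 ± 0.24 (SD, n = 6, adjusted p = 4.86e-05) in AcB55 and 0.81 ± 0.20 (SD, n = 8, adjusted p = 7.42e-07) in AcB61. Incenp measured 0.35, 0.68 and 1.19 in AcB55 and 0.18, 0.54 and 0.69 in AcB61, with means of 0.71 ± 0.29 (SD, n = 6, adjusted p = 2.21e-05) in AcB55 and 0.48 ± 0.20 (SD, n = 8, adjusted p = 0.000267) in AcB61. Aurka, the Aurora kinase of centrosomes and spindle poles, measured 0.17, 0.44 and 0.89 in AcB55 and 0.085, 0.29 and 0.86 in AcB61, with means of 0.47 ± 0.28 (SD, n = 6, adjusted p = 0.00241) in AcB55 and 0.40 ± 0.28 (SD, n = 8, adjusted p = 0.00269) in AcB61. For these 3 genes every array lay above 0. Aurkc, the Aurora kinase known best from germ cells, passed in neither strain, and 2 AcB55 arrays stood far below the rest: replicates 3 and 4 measured -1.06 and -1.35, while the other AcB55 arrays lay between 0.17 and 0.75. With those 2 arrays left out, the AcB55 mean turned from -0.10 (adjusted p = 0.797) to 0.45 and passed (adjusted p = 0.00365). The titles of these 2 arrays carry the letter b, whose meaning the labels do not give. Aurkc was singled out after its values were seen.

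Of the Polo and NIMA-related kinases, 3 of 7 were called higher and 1 lower in each strain. These are 42.9% and 14.3%. Of all features, 9.77% were called higher and 10.9% lower in AcB55, and 10.5% and 13.3% in AcB61. Plk1, which drives mitotic entry, spindle assembly and cytokinesis, measured 0.085, 0.75 and 1.09 in AcB55 and 0.16, 0.62 and 1.19 in AcB61, with means of 0.69 ± 0.34 (SD, n = 6, adjusted p = 0.000848) in AcB55 and 0.68 ± 0.39 (SD, n = 8, adjusted p = 0.000316) in AcB61. Nek6 measured 0.51, 0.73 and 1.15 in AcB55 and 0.20, 0.52 and 0.77 in AcB61, with means of 0.76 ± 0.24 (SD, n = 6, adjusted p = 3.1e-06) in AcB55 and 0.51 ± 0.19 (SD, n = 8, adjusted p = 5.08e-05) in AcB61. Nek9, the kinase that activates Nek6 in mitosis, was lower on every array: it measured -0.73, -0.50 and -0.24 in AcB55 and -0.47, -0.27 and -0.16 in AcB61, with means of -0.50 ± 0.18 (SD, n = 6, adjusted p = 1.19e-05) in AcB55 and -0.29 ± 0.096 (SD, n = 8, adjusted p = 0.00059) in AcB61. A kinase and the kinase upstream of it were thus on opposite sides of A/J. Nek2, which parts the centrosomes, had means of 0.33 ± 0.21 (SD, n = 6, adjusted p = 0.0028) in AcB55 and 0.26 ± 0.16 (SD, n = 8, adjusted p = 0.00568) in AcB61. Nek7, Nek8 and Plk5 passed in neither strain.

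The kinesins are given by function. Of 7 kinesins with a known role in mitosis or at the centrosome, 2 were called higher in AcB55 and 3 in AcB61, and none lower. Those called higher are 28.6% and 42.9%, beside 9.77% and 10.5% of all features. Kif23, a motor of the central spindle in cytokinesis, measured 0.32, 0.42 and 0.74 in AcB55 and 0.0021, 0.29 and 0.51 in AcB61, with means of 0.50 ± 0.19 (SD, n = 6, adjusted p = 5.19e-05) in AcB55 and 0.27 ± 0.16 (SD, n = 8, adjusted p = 0.003) in AcB61. Kif22, which pushes chromosome arms away from the poles, measured 0.29, 0.48 and 0.84 in AcB55 and 0.23, 0.40 and 1.26 in AcB61, with means of 0.53 ± 0.25 (SD, n = 6, adjusted p = 0.00124) in AcB55 and 0.52 ± 0.32 (SD, n = 8, adjusted p = 0.000531) in AcB61. Kif2a, which shortens microtubules, had means of 0.12 ± 0.25 (SD, n = 6, adjusted p = 0.315) in AcB55 and 0.22 ± 0.17 (SD, n = 8, adjusted p = 0.028) in AcB61. The Kif2a call was lost without AcB61 replicate 1 (adjusted p = 0.0554), 3 (adjusted p = 0.0649) or 7 (adjusted p = 0.0885).

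Kif11 (Eg5), the motor that separates the spindle poles, measured -0.12, 0.065 and 0.34 in AcB55 and -0.18, -0.0023 and 0.09 on 7 AcB61 arrays and passed in neither (adjusted p = 0.425 and 0.817). Kif20a, a partner of the passenger complex in cytokinesis, measured -0.029, 0.049 and 0.56 on 5 AcB55 arrays and -0.24, 0.05 and 0.23 in AcB61 and passed in neither either (adjusted p = 0.281 and 0.807). Kif18a and Kif24 also passed in neither strain. A single probe read Kif11 and another Kif20a, as for most genes described here, so their small ratios rest on 1 cDNA spot each.

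None of the 9 transport and other kinesins was called higher, and 1 (11.1%) was called lower in each strain. Of all features, 9.77% were called higher and 10.9% lower in AcB55, and 10.5% and 13.3% in AcB61. For 9 genes these counts are near the shares of all features. Kif1c, a carrier of vesicles along microtubules, measured -0.46, -0.11 and -0.0045 in AcB55 and -0.74, -0.39 and -0.095 in AcB61, with means of -0.14 ± 0.17 (SD, n = 6, adjusted p = 0.211) in AcB55 and -0.38 ± 0.22 (SD, n = 8, adjusted p = 0.000534) in AcB61. Kif3a, a subunit of kinesin-2, the motor of cilia, measured -0.23, -0.14 and -0.025 in AcB55 and -0.077, -0.0013 and 0.20 in AcB61, with means of -0.14 ± 0.073 (SD, n = 6, adjusted p = 0.0474) in AcB55 and 0.018 ± 0.089 (SD, n = 8, adjusted p = 0.815) in AcB61. The first of its 2 probes averaged -0.37 in AcB55 (adjusted p = 0.00931) with values on 4 arrays, and the second -0.0083 (adjusted p = 0.954), which alone gives the gene's value on AcB55 replicates 1 and 2. The Kif3a call in AcB55 was lost without any one of 12 of the 14 arrays, all but AcB55 replicate 2 and AcB61 replicate 2 (adjusted p 0.0503 to 0.15). The remaining 7 (Kif16b, Kif1b, Kif26a, Kif3b, Kif5b, Kif7 and Kif9) had means between -0.18 (Kif3b, AcB55) and 0.11 (Kif7, AcB61).

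Condensin, the ring-shaped complex that compacts mitotic chromosomes, had most of its measured subunits called higher: 5 of 7 in AcB55 and 6 of 7 in AcB61. These are 71.4% and 85.7%, beside 9.77% and 10.5% of all features. Smc4, one of the 2 ATPase arms, measured 0.62, 0.72 and 0.84 in AcB55 and 0.21, 0.39 and 0.79 in AcB61, with means of 0.73 ± 0.084 (SD, n = 6, adjusted p = 1.57e-06) in AcB55 and 0.43 ± 0.22 (SD, n = 8, adjusted p = 8.47e-05) in AcB61. Smc2, the other arm, measured 0.25, 0.37 and 0.50 in AcB55 and 0.42, 0.54 and 1.01 in AcB61, with means of 0.37 ± 0.079 (SD, n = 6, adjusted p = 0.000499) in AcB55 and 0.59 ± 0.20 (SD, n = 8, adjusted p = 2.34e-06) in AcB61. In AcB55 the mean of Smc2 lies between 2 probes that stand apart, at 0.75 (adjusted p = 4.32e-05) and -0.014 (adjusted p = 0.96). In AcB61 these probes averaged 0.68 and 0.50, and the strain difference passed for the second (0.51, adjusted p = 0.0415) and not for the first (-0.072, adjusted p = 0.787). Ncapd2, a regulatory subunit of condensin I, measured 0.33, 0.66 and 1.10 in AcB55 and 0.099, 0.40 and 0.79 in AcB61, with means of 0.70 ± 0.27 (SD, n = 6, adjusted p = 2.38e-05) in AcB55 and 0.39 ± 0.22 (SD, n = 8, adjusted p = 0.0013) in AcB61. Every array was above 0 for these 3 genes. Ncaph, the kleisin that closes the condensin I ring, had means of 0.46 ± 0.26 (SD, n = 6, adjusted p = 0.000459) in AcB55 and 0.45 ± 0.18 (SD, n = 8, adjusted p = 0.000209) in AcB61 and Ncaph2, its counterpart in condensin II, of 0.27 ± 0.11 (SD, n = 6, adjusted p = 0.00158) in AcB55 and 0.23 ± 0.13 (SD, n = 8, adjusted p = 0.00225) in AcB61. Ncapg2 was called in AcB61 (0.58 ± 0.25, adjusted p = 0.000258) and not in AcB55 (0.31 ± 0.37, adjusted p = 0.0713). Ncapg passed in neither strain.

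The other SMC proteins of the list are the arms of cohesin, which holds sister chromatids together, those of the related SMC5/6 complex of DNA repair, and Smchd1, which belongs to neither. Of these 6 genes 1 was called higher in AcB55, and 2 higher and 1 lower in AcB61. That is 16.7% higher in AcB55, beside 9.77% of all features. In AcB61 it is 33.3% higher and 16.7% lower, beside 10.5% and 13.3%. Rad21, the cohesin kleisin, lies outside the symbol rule and was called higher in both strains, with means of 0.38 ± 0.23 (SD, n = 6, adjusted p = 0.00223) in AcB55 and 0.52 ± 0.20 (SD, n = 8, adjusted p = 4.46e-05) in AcB61. Smc1a, a cohesin arm, had means of 0.52 ± 0.19 (SD, n = 6, adjusted p = 0.000119) in AcB55 and 0.23 ± 0.22 (SD, n = 8, adjusted p = 0.0222) in AcB61, and Smc3, its partner, of 0.081 ± 0.27 (SD, n = 6, adjusted p = 0.545) in AcB55 and 0.25 ± 0.14 (SD, n = 8, adjusted p = 0.0117) in AcB61. Smc6 measured -0.20, -0.0023 and 0.18 in AcB55 and -0.22, -0.14 and -0.10 in AcB61, with means of 0.0021 ± 0.16 (SD, n = 6, adjusted p = 0.988) in AcB55 and -0.15 ± 0.039 (SD, n = 8, adjusted p = 0.0237) in AcB61. The AcB61 calls were lost without replicate 3 (adjusted p = 0.0702) or 7 (adjusted p = 0.071) for Smc1a and without replicate 8 (adjusted p = 0.0585) for Smc6. Smc1b, the meiotic cohesin arm, Smc5 and Smchd1 passed in neither strain.

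Genes of spindle assembly, the centrosome and cytokinesis were called higher in 6 of 9 cases in AcB55, and in 5 of 9 in AcB61 with 1 lower. Those called higher are 66.7% and 55.6%, beside 9.77% and 10.5% of all features. The 1 called lower in AcB61 is 11.1%, beside 13.3%. Nusap1, a microtubule-binding protein of the spindle near the chromosomes, measured 0.87, 1.02 and 1.08 in AcB55 and 0.31, 0.41 and 1.26 in AcB61, with means of 1.00 ± 0.073 (SD, n = 6, adjusted p = 3.34e-06) in AcB55 and 0.62 ± 0.38 (SD, n = 8, adjusted p = 0.000109) in AcB61. Stmn1, stathmin, which takes tubulin dimers out of microtubules and is abundant in dividing precursors, measured 0.085, 0.26 and 0.51 in AcB55 and 0.21, 0.82 and 1.49 in AcB61, with means of 0.28 ± 0.15 (SD, n = 6, adjusted p = 0.164) in AcB55 and 0.81 ± 0.49 (SD, n = 8, adjusted p = 8.84e-05) in AcB61. Racgap1, which with Kif23 forms the centralspindlin complex of cytokinesis, measured 0.15, 0.34 and 0.53 in AcB55 and 0.26, 0.49 and 0.88 in AcB61, with means of 0.33 ± 0.13 (SD, n = 6, adjusted p = 0.00185) in AcB55 and 0.54 ± 0.19 (SD, n = 8, adjusted p = 7.23e-06) in AcB61. Tacc3, a stabiliser of spindle microtubules, had means of 0.61 ± 0.20 (SD, n = 6, adjusted p = 2.13e-05) in AcB55 and 0.41 ± 0.20 (SD, n = 8, adjusted p = 0.00026) in AcB61. Every array was above 0 for these 4 genes, and Nusap1 and Stmn1 were the ones with the widest range in AcB61. The Stmn1 test in AcB55 used an SE of 0.13, from scatter pooled with the AcB61 arrays.

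Prc1, which bundles the microtubules of the central spindle, measured 0.031, 0.28 and 0.45 in AcB55 and -0.36, -0.098 and 0.18 in AcB61, with means of 0.25 ± 0.16 (SD, n = 6, adjusted p = 0.0142) in AcB55 and -0.09 ± 0.18 (SD, n = 8, adjusted p = 0.323) in AcB61. Stil, needed for the duplication of centrioles, went in opposite directions: it measured 0.072, 0.17 and 0.53 in AcB55 and -0.38, -0.22 and -0.035 in AcB61, without overlap, with means of 0.21 ± 0.17 (SD, n = 6, adjusted p = 0.0175) in AcB55 and -0.23 ± 0.12 (SD, n = 8, adjusted p = 0.0034) in AcB61. Tpx2, which activates Aurora A on the spindle, measured 0.18, 0.22 and 0.36 in AcB55 and -0.11, 0.17 and 0.61 in AcB61, with means of 0.25 ± 0.077 (SD, n = 6, adjusted p = 0.0238) in AcB55 and 0.19 ± 0.25 (SD, n = 8, adjusted p = 0.0452) in AcB61. In AcB61 its 2 probes were called in opposite directions, at -0.29 (adjusted p = 0.0062) and 0.67 (adjusted p = 5.7e-05), so that the mean describes neither. The call of that mean in AcB61 was lost without any one of 11 of the 14 arrays (adjusted p 0.0511 to 0.142; AcB61 replicates 2, 6 and 8 are the exceptions), and in AcB55 without replicate 2 (adjusted p = 0.0711) or 6 (adjusted p = 0.0733). The AcB55 calls of Prc1 were lost without replicate 1 (adjusted p = 0.0617) or 4 (adjusted p = 0.0517) and that of Stil without replicate 6 (adjusted p = 0.0921). Cenpj and Cdk5rap2, both of the centrosome, passed in neither strain.

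Another 13 genes were set apart as transcriptional and other CDKs or as matched by symbol only. In AcB55, 2 of them were called higher (Cdk12 and Ccnb1ip1) and 2 lower. These are 15.4% each, beside 9.77% and 10.9% of all features. In AcB61, 3 were called higher (Ccndbp1, Cdk2ap1 and Cdk8), or 23.1% beside 10.5% of all features, and none lower. Cdk9, the kinase that releases RNA polymerase II from pausing, measured -0.59, -0.57 and -0.32 on 5 AcB55 arrays and -0.34, -0.069 and 0.15 in AcB61, with means of -0.50 ± 0.12 (SD, n = 5, adjusted p = 5.6e-05) in AcB55 and -0.052 ± 0.16 (SD, n = 8, adjusted p = 0.568) in AcB61. Cdk2ap2 measured -0.62, -0.41 and -0.17 in AcB55 and -0.38, -0.078 and 0.23 in AcB61, with means of -0.41 ± 0.20 (SD, n = 6, adjusted p = 0.00113) in AcB55 and -0.064 ± 0.22 (SD, n = 8, adjusted p = 0.583) in AcB61. Cdk12, a kinase of transcript elongation, had means of 0.29 ± 0.095 (SD, n = 6, adjusted p = 0.00337) in AcB55 and 0.065 ± 0.19 (SD, n = 8, adjusted p = 0.478) in AcB61. Ccndbp1, which binds D-type cyclins, had means of 0.23 ± 0.32 (SD, n = 6, adjusted p = 0.0893) in AcB55 and 0.40 ± 0.20 (SD, n = 8, adjusted p = 0.0017) in AcB61. The smaller calls moved with single arrays: Ccnb1ip1 in AcB55 without replicate 6 (adjusted p = 0.0736), Cdk2ap1 in AcB61 without replicate 3 (adjusted p = 0.0551) or 7 (adjusted p = 0.0539), and Cdk8 without replicate 1, 3, 5 or 7 (adjusted p 0.0543 to 0.0849). Cdk5, Cdk13, Cdk18, Cdk20, Cdk5rap3 and Mad2l2 passed in neither strain, and Cdk20 had values on only 4 AcB55 arrays.

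A direct test of AcB61 against AcB55 called 3 of the 107 genes higher in AcB61 (2.8%) and 9 lower (8.41%). Of all features, 5.29% were called higher and 6.98% lower (12.3% in either direction), so the share of members that differed was near that of all features. The array ranges of the strains did not overlap for 7 members (Mki67, Pttg1, Cenpf, Stil, Cdk2, Cdc27 and Cenpa), beside 2.67% of all features. The 9 genes with lower values in AcB61 were Mki67 (-1.01), Pttg1 (-0.75), Cenpf (-0.53, adjusted p = 0.00277), Stil (-0.44, adjusted p = 0.00247), Cdc25a (-0.39, adjusted p = 0.0202), Cdk2 (-0.38, adjusted p = 0.00265), Prc1 (-0.34, adjusted p = 0.0233), Smc4 (-0.30, adjusted p = 0.0441) and Cdc27 (-0.28, adjusted p = 0.00988). Those with higher values were Cdk9 (0.45, adjusted p = 0.00448), Cenpa (0.36, adjusted p = 0.00649) and Cdk2ap2 (0.34, adjusted p = 0.0418). Of these genes, Mki67, Cenpf, Stil, Cdc25a, Cdk2, Prc1, Cdk9 and Cdk2ap2 had 1 measured probe each, so no second probe could be set beside their differences. For Cdc27 the second probe passed (-0.35, adjusted p = 0.0244) and the first did not (-0.22, adjusted p = 0.091). The first and second Smc4 probes passed (-0.44, adjusted p = 0.00581, and -0.31, adjusted p = 0.0442), and the third did not (-0.16, adjusted p = 0.527).

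Of these differences, that of Smc4 was lost without any one of 12 of the 14 arrays, all but AcB61 replicates 3 and 7 (adjusted p 0.0537 to 0.101), and that of Cdk2ap2 without any one of 9 (AcB55 replicates 3 to 6 and AcB61 replicates 1, 3, 4, 5 and 7, adjusted p 0.0599 to 0.113). That of Cdc25a was lost without AcB55 replicate 6 (adjusted p = 0.0567) and that of Prc1 without AcB55 replicate 4 (adjusted p = 0.0557) or 5 (adjusted p = 0.0516). The other 8 held in every fit with 1 array left out. Without AcB55 replicate 2, the number of members higher in AcB61 went from 3 to 6.

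**Figure D3:**
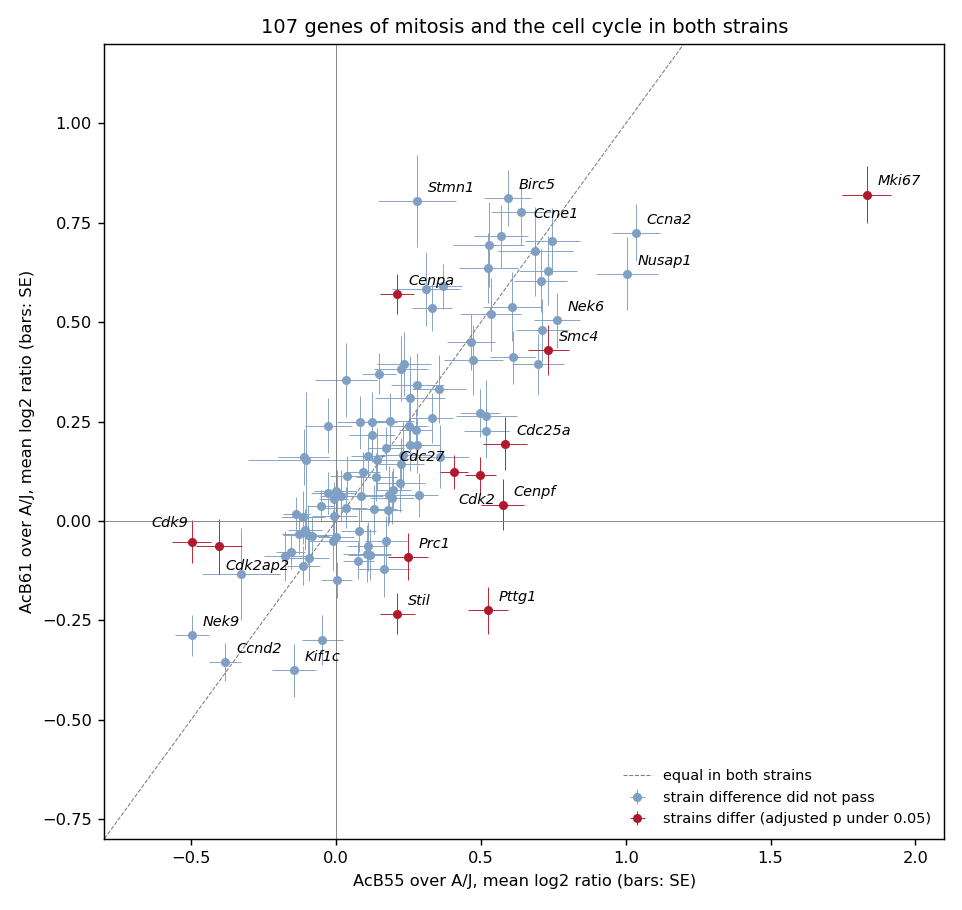
Mean log2 ratio over A/J in AcB55 (x axis) and AcB61 (y axis) for each of the 107 genes, with bars of 1 SE; red points are the 12 genes whose difference between the strains passed the test and the dashed line marks equal values. Mki67, at 1.83 and 0.82, lies farthest below the line, Pttg1 and Stil lie in the quadrant that is above A/J in AcB55 and below it in AcB61, and both axes share the same A/J reference.

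The AcB61 arrays fell into sets across all features, and the members followed them. Over all features, replicates 2, 6 and 8 correlated with each other at r = 0.79 to 0.83 and replicates 3, 5 and 7 at 0.70 to 0.80, while pairs across these sets correlated at -0.089 to 0.15. Replicates 1 and 4 correlated with both sets (0.37 to 0.64). The AcB55 arrays correlated among themselves at 0.40 to 0.75. The labels give nothing that separates the AcB61 sets, and the cause was not tested.

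Most members called higher in AcB61 were above A/J in both sets, with different sizes. Of the 49, 48 had a mean above 0 in both sets, and 24 had a mean above 0.3 in both. The 49 were called from a mean that includes both sets, so this choice itself favours set means above 0. The same count was not made over all features called higher. Stmn1 measured 0.29 as the mean of replicates 2, 6 and 8 and 1.31 as that of 3, 5 and 7. Cdc20 measured 0.56 and 1.00, and Kif22 0.31 and 0.81. In the opposite order, Nusap1 measured 1.05 and 0.34, Ccnd3 1.10 and 0.33, Fbxo5 1.04 and 0.31, and Mad2l1 0.94 and 0.28. Mki67 (1.01 and 0.76), Birc5 (1.01 and 0.72) and Ccne1 (0.87 and 0.89) were closer to equal. Over the 107 genes, 32 (29.9%) had all of replicates 2, 6 and 8 above all of 3, 5 and 7, and 22 (20.6%) the reverse, beside 31.0% and 25.0% of all features. The split between the sets was thus about as common among the members as among all features.

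**Figure D4:**
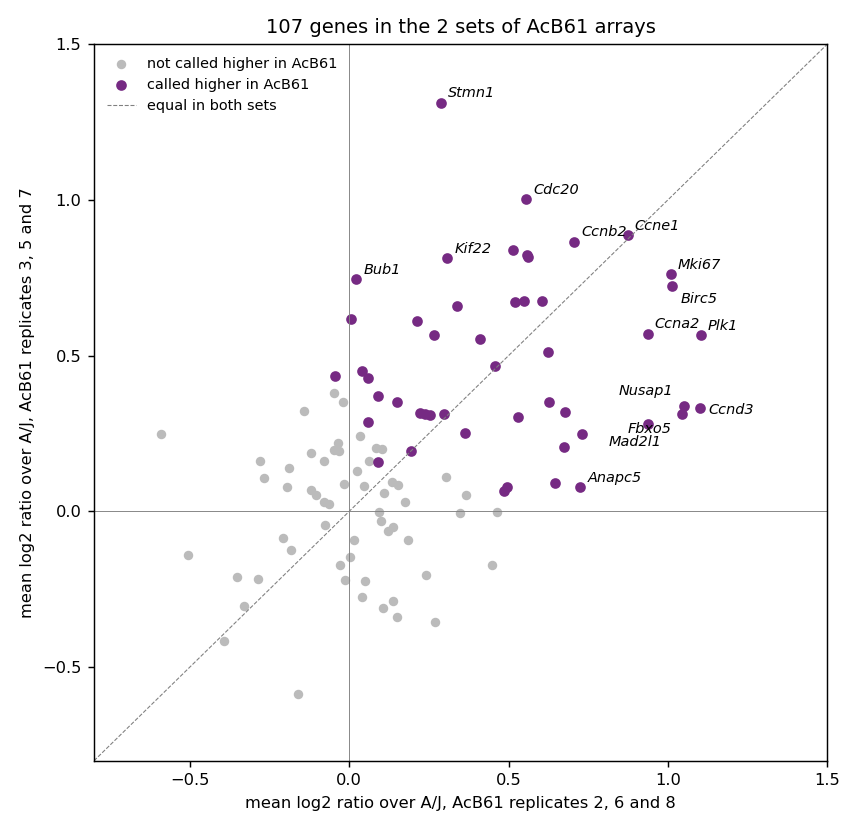
Mean log2 ratio over A/J of each of the 107 genes in AcB61 replicates 2, 6 and 8 (x axis) and in replicates 3, 5 and 7 (y axis); purple points were called higher in AcB61, grey points were not, and the dashed line marks equal values. Stmn1 (0.29 and 1.31) and Nusap1 (1.05 and 0.34) lie far from the line on opposite sides, and Tpx2 is the called gene with a mean just below 0 in replicates 2, 6 and 8.

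With replicates 2, 6 and 8 left out together, 43 members were called higher in AcB61, and with replicates 3, 5 and 7 left out 41. The calls of Anapc16 (adjusted p = 0.0529), Anapc5 (adjusted p = 0.269), Aurka (adjusted p = 0.0789), Cdk4 (adjusted p = 0.379), Cenpn (adjusted p = 0.13), Mad2l1bp (adjusted p = 0.268), Nuf2 (adjusted p = 0.0918) and Pttg1 (adjusted p = 0.147) were lost in the first fit alone. Those of Bub1 (adjusted p = 0.735), Cdc25a (adjusted p = 0.391), Cdk2ap1 (adjusted p = 0.282), Cdk8 (adjusted p = 0.304), Kif2a (adjusted p = 0.287), Ndc80 (adjusted p = 0.686), Smc1a (adjusted p = 0.308), Smc3 (adjusted p = 0.0716) and Tpx2 (adjusted p = 0.638) were lost in the second alone. Bub3, Cdc27 and Smc6 were lost in both. The calls of Mki67, all 6 cyclins, Cdk1, Cdc20, Fbxo5, Mad2l1, Birc5, Incenp, Plk1, Nusap1 and Stmn1 held in both fits.

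In AcB55, replicates 1 and 2 had larger increases than the other arrays. The mean log2 ratio over the 107 genes was 0.330 and 0.366 on these arrays, and 0.152 to 0.194 on replicates 3 to 6. Without replicates 1 and 2, 33 members were called higher in AcB55. Lost among them were Ccnd3 (adjusted p = 0.0733), Aurka (adjusted p = 0.0628), Nek2 (adjusted p = 0.0778), Nuf2 (adjusted p = 0.184), Cenpq (adjusted p = 0.108) and Bub1b (adjusted p = 0.0968). On the same arrays the mean over 4 tested granulocyte markers was 1.05 and 1.31, whereas it was at most 0.150 on replicates 3 to 6. That marker list, of which 4 of 10 genes were tested, had 1 gene called higher in AcB55 (Lcn2) and 2 higher and 1 lower in AcB61, where its mean lay between 0.270 and 0.749. Other lists described below also set AcB55 replicates 1 and 2 apart. Erythroid precursors averaged 0.662 and 0.635 on them (at most 0.547 on replicates 3 to 6) and DNA replication 0.543 and 0.490 (at most 0.343). G1/S regulators and other mitotic genes were highest on them too, and stroma and vessel markers lowest (-0.515 and -0.510). Lymphocyte and macrophage markers did not set them apart. The part of granulocytes or of other cells in the members' values was not tested.

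Markers of other spleen cells also moved with the strains. Of 31 listed erythroid precursor genes 17 were tested, 13 of them called higher and 1 lower in AcB55, and 14 higher and none lower in AcB61. The mean of that list lay between 0.380 and 0.662 on the AcB55 arrays and between 0.524 and 0.693 on the AcB61 arrays. Its defining genes measured here include Slc4a1, the anion exchanger of red cells, with means of 1.28 ± 0.31 (SD, n = 5, adjusted p = 4.11e-07) in AcB55 and 1.07 ± 0.23 (SD, n = 8, adjusted p = 4.1e-07) in AcB61. Of 22 lymphocyte markers only 3 were tested and none of the defining ones. H2-Eb1, Blnk and Satb1 were called lower in AcB55 and the first 2 in AcB61, and the mean of these 3 was -1.04 to -0.67 on the AcB55 and -0.80 to -0.41 on the AcB61 arrays. Of 8 tested macrophage markers, 2 were called higher and 5 lower in AcB55 and 1 higher and 3 lower in AcB61, with list means from -0.31 to 0.023 and from -0.29 to -0.0059. Of 8 tested stroma and vessel markers, 7 were called lower in AcB55, and 6 lower and 1 higher in AcB61, with list means from -0.51 to -0.16 and from -0.40 to -0.054. The part of these cell types in the members' values was not tested.

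Genes of the same processes outside the symbol rule were also called higher more often than lower. Of 55 listed mitotic genes 41 were tested, 22 called higher and 1 lower in each strain, with medians of 0.29 in AcB55 and 0.24 in AcB61. Cks2, a small subunit of cyclin-dependent kinases, had means of 0.63 ± 0.21 (SD, n = 6, adjusted p = 7.65e-05) in AcB55 and 0.73 ± 0.27 (SD, n = 8, adjusted p = 5.41e-06) in AcB61, and Top2a, the topoisomerase that untangles sister chromatids, of 0.60 ± 0.30 (SD, n = 6, adjusted p = 0.000279) in AcB55 and 0.64 ± 0.26 (SD, n = 8, adjusted p = 4.98e-05) in AcB61. Cks1b, the paralog of Cks2, was the gene called lower in AcB55, with means of -0.44 ± 0.19 (SD, n = 6, adjusted p = 0.00185) in AcB55 and 0.30 ± 0.28 (SD, n = 8, adjusted p = 0.0103) in AcB61. Its strains did not overlap, and the difference of 0.73 (SE 0.12) passed (adjusted p = 0.00164); it was singled out after its values were seen. Dlgap5, a spindle protein, had means of 0.65 ± 0.24 (SD, n = 6, adjusted p = 2.02e-05) in AcB55 and 0.28 ± 0.20 (SD, n = 8, adjusted p = 0.00759) in AcB61. Ube2s, the ubiquitin enzyme that extends chains for the APC/C, had means of 0.30 ± 0.39 (SD, n = 6, adjusted p = 0.202) in AcB55 and 0.83 ± 0.50 (SD, n = 8, adjusted p = 0.000289) in AcB61.

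Of 51 listed genes of DNA replication, 36 were tested, 24 called higher in AcB55 and 23 in AcB61, and none lower, with medians of 0.33 and 0.24. Rrm2, a subunit of the enzyme that makes deoxynucleotides, had means of 0.99 ± 0.11 (SD, n = 6, adjusted p = 0.000164) in AcB55 and 0.69 ± 0.58 (SD, n = 8, adjusted p = 0.00129) in AcB61. Pcna, the sliding clamp of DNA polymerases, had means of 0.75 ± 0.23 (SD, n = 6, adjusted p = 1.56e-05) in AcB55 and 0.85 ± 0.26 (SD, n = 8, adjusted p = 1.59e-06) in AcB61, and Mcm2, a subunit of the replicative helicase, of 0.89 ± 0.20 (SD, n = 6, adjusted p = 1.06e-05) in AcB55 and 0.68 ± 0.34 (SD, n = 8, adjusted p = 3.86e-05) in AcB61. The other 12 genes in AcB55 and 13 in AcB61 did not pass.

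Regulators of the step from G1 into S phase had calls in both directions. Of 43 listed, 26 were tested, with 13 called higher and 3 lower in AcB55 and 8 higher and 2 lower in AcB61, and medians of 0.18 and 0.056. Btg1, an inhibitor of proliferation that is highly expressed in resting lymphocytes, had means of -1.001 ± 0.22 (SD, n = 6, adjusted p = 1.06e-05) in AcB55 and -0.90 ± 0.40 (SD, n = 8, adjusted p = 9.48e-06) in AcB61. Tfdp1, the DNA-binding partner of E2F factors, had means of 0.95 ± 0.11 (SD, n = 6, adjusted p = 2.3e-06) in AcB55 and 0.52 ± 0.33 (SD, n = 8, adjusted p = 0.000248) in AcB61. Cdkn2c, an inhibitor of Cdk4 and Cdk6, had means of 0.46 ± 0.25 (SD, n = 6, adjusted p = 0.00115) in AcB55 and 0.58 ± 0.23 (SD, n = 7, adjusted p = 9.3e-05) in AcB61, and E2f4, a repressor-type E2F, of 0.67 ± 0.26 (SD, n = 6, adjusted p = 0.00149) in AcB55 and 0.34 ± 0.46 (SD, n = 8, adjusted p = 0.0446) in AcB61. In AcB61, E2f4 averaged 0.88 on replicates 3, 5 and 7, 0.023 on replicates 2, 6 and 8 and -0.0053 on replicates 1 and 4.

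Where a gene had several probes, the probes did not always give the same value. Of the 28 members with more than 1 probe, 21 in AcB55 and 24 in AcB61 had probe means all of 1 sign. In AcB55, 11 of the 28 had every probe called higher (Ccna2, Ccnf, Cdc27, Incenp, Kif23, Ncapd2, Ncaph2, Pttg1, Smc1a, Smc4 and Tacc3), and in AcB61 10 did. Probes of 1 gene were called in opposite directions for Smc6 in AcB55 and for Tpx2 in AcB61.

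Besides Cenpa, whose probes are given above, Ccna2 differed by probe. Its first probe averaged 1.21 in AcB55 and 0.65 in AcB61 (difference -0.56, adjusted p = 0.00325) and the second 0.86 and 0.89 (difference 0.033, adjusted p = 0.867). The first Tpx2 probe averaged 0.13 in AcB55 and -0.29 in AcB61, and the second 0.38 and 0.67. The 5 probes of Smc6 averaged 0.38, 0.34, -0.28, -0.029 and -0.41 in AcB55. In AcB55 the first and second probes averaged 0.042 and 0.54 for Racgap1, 0.019 and 0.34 for Anapc1, and 0.13 and 0.45 for Cdk12. For each of these genes only the second probe passed in AcB55. Both Racgap1 probes were called higher in AcB61. The files do not give the part of each transcript that a probe reads, and the reason for these differences was not tested.

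**Figure D5:**
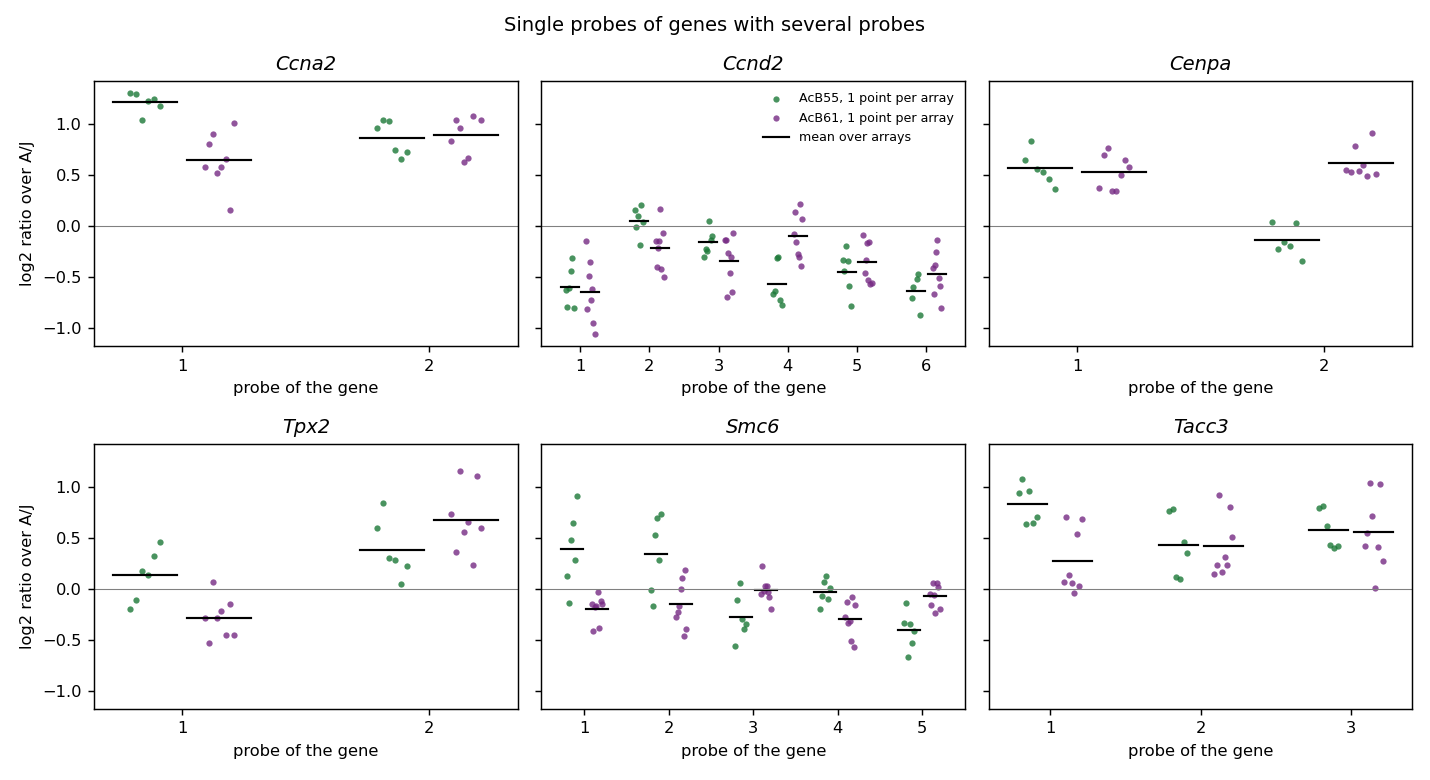
Log2 ratio over A/J (y axis) on each array for the single probes (x axis, numbered within a gene) of 6 genes with several probes; points are arrays, green for AcB55 and purple for AcB61, and lines are means. The 2 Cenpa probes are alike in AcB61 and apart in AcB55, the 2 Tpx2 probes average on either side of 0 in AcB61, and 5 of the 6 Ccnd2 probes average below 0 in both strains.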

How the data were processed

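Per the labels' protocols, spleen RNA was copied into Cy3- or Cy5-labelled cDNA, hybridised in pairs, scanned and quantified with QuantArray 3.0, and read into GeneSpring. The text breaks off at the dye swap, so any normalization was not given in the sources used here. Deposited values are log ratios of the channels, taken as log2, with array medians of -0.0205 to 0.0087; their base was judged from the range of values. Of 15247 listed features, 14612 had a value. Gene symbols came from the platform annotation, and probes of 1 gene were averaged per array. Features with at least 3 values per strain (13045) were fitted with limma 3.58.1 in R 4.3.3 (a mean per strain over all 14 arrays, eBayes), checked on simulated data. The number of arrays limits the precision. Genes named with lowest, median and highest array were the 10 largest changes per comparison and direction and a fixed list. The members and lists were chosen with earlier results of these data known. Alternatives are given in the closing section. Leaving out the AcB61 array sets was chosen after seeing the data.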

Additional observations from a re-analysis of the deposited data

Results flagged for a closer look

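Single arrays far from the rest of their strain (Dixon's 95% limit) were found in 10 of 214 gene and strain groups, and chance alone gives about 1 in 20. In AcB55 they were Cenpj at -0.176, Kif20a at 0.558 and Smc1a at 0.16 on replicate 3, Cenpo at -0.0071 on replicate 4, Smc3 at 0.594 on replicate 2 and Stil at 0.534 on replicate 6. In AcB61 they were Anapc7 at 0.386 on replicate 5, Cdk5rap3 at 0.446 and Kif22 at 1.26 on replicate 7, and Cenps at 0.285 on replicate 3. All values are log2 ratios over A/J.

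The test of AcB61 minus AcB55 on the log2 scale passed for 12 genes. AcB61 was lower for Mki67 (-1.01), Pttg1 (-0.75), Cenpf (-0.534), Stil (-0.445), Cdc25a (-0.389), Cdk2 (-0.383), Prc1 (-0.338), Smc4 (-0.303) and Cdc27 (-0.284). AcB61 was higher for Cdk9 (0.447), Cenpa (0.361) and Cdk2ap2 (0.341). Pttg1 and Stil lay above A/J on every AcB55 array and below it on every AcB61 array.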

How the results depend on the processing

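No paired analysis was possible because the labels give no replicate numbers, and those used here only name the arrays. With 1 array left out at a time, the genes called higher numbered 39 to 47 in AcB55 and 40 to 48 in AcB61, and those called lower 4 to 6 and 7 to 7; between the strains 2 to 6 were higher in AcB61 and 7 to 11 lower. The counts against A/J stayed within 1.5 times of the main ones under every alternative run, among them centring, scaling, array weights, a robust prior, complete features only, single probes and an adjusted p under 0.01 (34 and 36 higher). The counts between the strains moved more. From 3 higher and 9 lower in AcB61, they went to 5 and 14 with each array centred and scaled, 7 and 19 with array weights, and 8 and 19 with each probe as its own feature. Without AcB61 replicates 2, 6 and 8 they went to 7 and 17, without AcB61 replicates 3, 5 and 7 the lower count went to 14, and without AcB55 replicates 1 and 2 the higher count went to 9. With each probe as its own feature, Tpx2 in AcB61 changed sign to -0.292 and the strain difference of Cenpa to -0.0348, because the probe used stands apart from the other one of its gene. Of the other single-gene values, 3474 stayed on their side of the threshold, 150 lost the call and 56 gained it. The 3474 include values that changed sign without passing in either fit, such as Kif11 in AcB55 without replicates 1 and 2 (from 0.0775 to -0.0181). The cause was not tested.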
